A study of Arabidopsis thaliana with 17 samples.

Results

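The father's copy of the genome in Arabidopsis thaliana endosperm was examined for the histone mark H3K27me3, gene by gene and along the chromosomes. Reads assigned to Ler, the paternal accession, were summed over each protein-coding gene body for the H3K27me3 antibody and for the H3 antibody, each scaled to its own total over the nuclear chromosomes. The ratio of the scaled H3K27me3 value to the scaled H3 value is called the Ler ratio below, and the same ratio for reads assigned to Col, the maternal accession, is called the Col ratio. Of 27444 nuclear protein-coding genes, 18666 had at least 10 Ler H3 reads and were tested. A gene was called marked when its Ler ratio was at least 2, and bare when it was at most 0.5.

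Seeds were taken 4 days after Col mothers were crossed with Ler fathers, and nuclei of 6N DNA content, those of the triploid endosperm after replication, were sorted by DAPI fluorescence. CUT&RUN, in which a nuclease brought to chromatin by an antibody releases the fragments it is bound to, was done with anti-H3K27me3 (4 libraries) and with anti-H3 (4 libraries), on nuclei fixed with formaldehyde and on nuclei left unfixed. Endosperm nuclei of this cross carry maternal Col and paternal Ler genomes in a proportion of 2 to 1, neither of them mutant. Ler was the father and Col the mother throughout. A difference between the parents therefore cannot be told apart from one between the accessions. The share of other nuclei in the sort was not tested. The parental reads were deposited as 1 pooled column per antibody and parent, so each value below is a single value with no replicate check, no p-value was computed, and fixed and unfixed nuclei cannot be told apart. Intervals are exact 95% binomial (Clopper-Pearson) intervals on the reads and cover counting error only. H3K27me3 domains from leaves of 3-week-old Col plants (1 H3K27me3 library of the 17 samples in all) served as a list of genes marked in another tissue.

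H3K27me3 is written by Polycomb repressive complex 2 (PRC2) and marks genes that are kept silent, above all developmental regulators outside their own tissue. The endosperm is a product of fertilization that feeds the embryo, and its PRC2 contains the seed-specific subunits MEDEA and FIS2. In endosperm PRC2 is best known for acting on the maternal alleles of paternally expressed imprinted genes, which are DNA-demethylated before fertilization in the central cell. Sperm chromatin in Arabidopsis is largely cleared of H3K27me3. The seed coat is maternal tissue and holds no paternal genome.

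The Ler columns held 1170723 H3K27me3 reads and 1437423 H3 reads on the nuclear chromosomes, against 11018316 and 6201154 in the Col columns. Of the reads assigned to a parent, Ler had 9.60% for H3K27me3 and 18.8% for H3, where dosage alone would give 33.3%. Scaling each column to its own total removes this overall difference from the ratios. A Ler ratio and a Col ratio are therefore each relative to their own genome, and equal ratios do not mean equal amounts of the mark. A tested gene had a median of 25 Ler H3K27me3 reads (quartiles 14 and 43) and 33 Ler H3 reads (quartiles 20 and 55). Of the 8778 genes not tested, 2896 had no read of either parent and 5882 had some reads but fewer than 10 Ler H3 reads. Among these untested genes 295 had 20 or more Ler H3K27me3 reads and are not described further. The 522 genes with exactly 10 Ler H3 reads had a median log2 ratio of 0.15 and 17.8% of them were marked, whereas the 474 genes with 9 reads had a median of 0.30 and 26.8% would have been.

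The paternal genome carried H3K27me3 well above H3 at a minority of genes. Of the 18666 tested genes, 1385 were marked (7.42%) and 3351 were bare (18.0%), and 205 bare genes had no Ler H3K27me3 read at all. On Col, 1825 of the same genes had a ratio of at least 2 (9.78%) and 2339 a ratio of at most 0.5 (12.5%). The median log2 ratio, computed with 0.5 added to each count, was -0.17 on Ler (quartiles -0.75 and 0.35) and -0.32 on Col (quartiles -0.73 and 0.26). Scaling to nuclear totals thus placed the median tested gene below 0, and lists are read against that value. With the median gene set to 0 instead, 2012 genes were marked and 2624 bare, and the marked share of all calls was 43.4% in place of 29.2%.

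The share of genes that passed moved with the depth of Ler H3. In the fifth of tested genes with 10 to 17 Ler H3 reads, 16.0% were marked and 21.7% bare, against 1.07% marked and 12.2% bare in the fifth with 63 to 452 reads. Marked genes also had a lower Ler share of H3 reads, with a median of 15.2% in marked genes, 24.4% in bare genes and 20.0% in those between. The part of depth and of H3 share in the calls was not tested. With the H3 reads of both parents as the denominator, 1318 genes were marked, of which 748 were also among the 1385, 54.0% of the calls made with Ler H3. For bare genes 2130 of 3351 calls (63.6%) were shared with that denominator. The spread between the 2 parts of a gene body exceeded counting error by a factor of 1.78 over 4300 genes. Intervals widened by this factor lay beyond 1 for 593 marked genes (3.18%) and 674 bare genes (3.61%), and calls that held under it are named as such below.

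Genes under H3K27me3 in leaf were higher on the paternal genome than the rest, with less contrast than on the maternal genome. The 3606 leaf-marked genes, whose bodies were covered by leaf domains to at least 50%, had a median log2 ratio of 0.41 on Ler (quartiles -0.14 and 0.90), and the 15060 other genes had -0.30 (quartiles -0.84 and 0.19). The difference of 0.70 on Ler compares with 1.27 on Col, where the medians were 0.80 in leaf-marked genes and -0.47 in the others. Of the leaf-marked genes 21.7% were marked and 6.66% bare on Ler, against 4.00% marked and 20.7% bare among the others. Turned round, 56.5% of marked genes, 18.5% of those between and 7.16% of bare genes were leaf-marked. Among genes whose widened interval lay beyond 1, 416 of 593 marked genes (70.2%) were leaf-marked, against 19 of 674 bare genes (2.82%). The leaf list was made from other nuclei and used no Ler read.

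**Figure D1:**
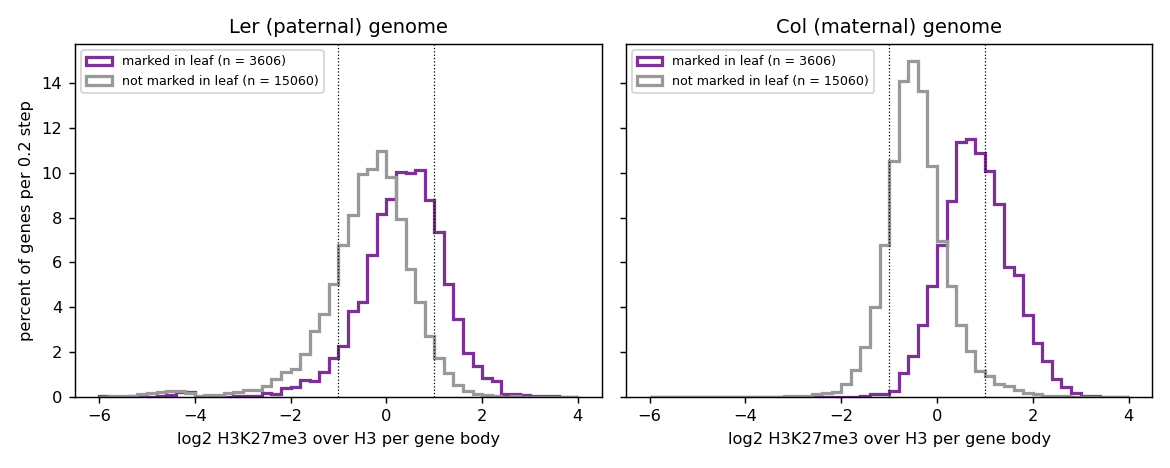
Distribution of the log2 ratio of H3K27me3 over H3 per gene body (horizontal axis, steps of 0.2) as a percentage of genes (vertical axis) on the Ler genome (left) and the Col genome (right), for genes marked in leaf (purple) and not marked in leaf (grey), with dotted lines at ratios of 2 and 0.5. The purple curve lies to the right of the grey one on both genomes, by 0.70 between medians on Ler and 1.27 on Col.

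The mark on Ler also followed the endosperm's own domains. These lists, 1 for each of the 4 endosperm H3K27me3 libraries, come from the same libraries and so are not independent of the Ler reads. The median Ler log2 ratio was -0.34 for genes in none of the 4 lists, 0.04 in 1, 0.22 in 2, 0.34 in 3 and 0.50 in all 4. The Col medians in the same order were -0.54, 0.15, 0.42, 0.71 and 1.20. Both series climb, and the step from no list to all 4 lists was 0.84 on Ler and 1.73 on Col.

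Along leaf-marked genes the Ler mark was broad and lay highest inside the gene body. Genes were sorted by the leaf cover of their bodies alone, with no condition on the flanks. A contrast between body and flanks may come with that choice in both sets, and its part was not tested. Summed over the leaf-marked genes the Ler ratio was 1.40 (1.39 to 1.41) in the body, against 1.22 and 1.23 in the 3 kb to either side. The Col ratio was 1.91 in the body and 1.54 on both sides. Genes not marked in leaf showed the opposite shape on Ler, with 0.851 in the body against 0.942 and 0.938 in the flanks, and the lowest steps at the gene ends.

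**Figure D2:**
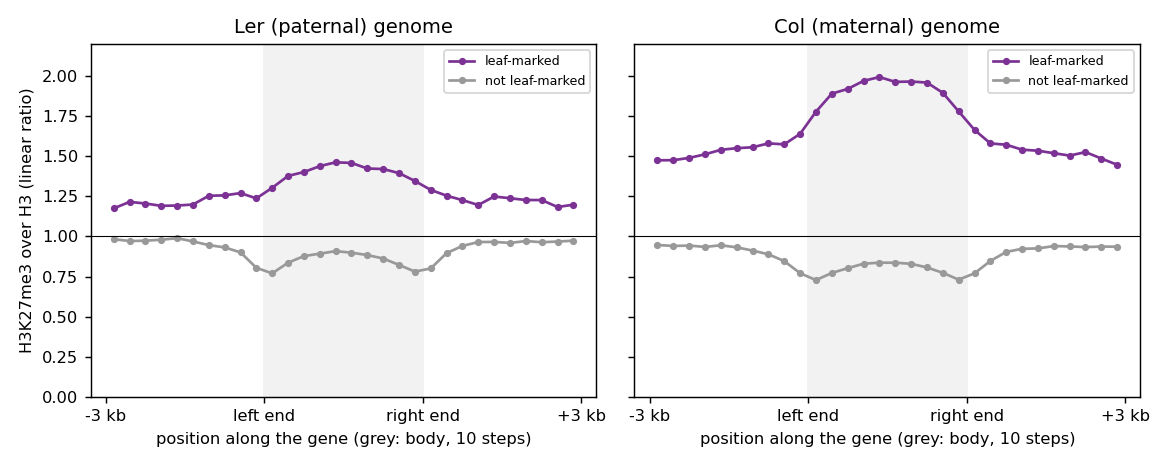
Summed H3K27me3 over H3 (linear ratio, vertical axis) in 300 bp steps over 3 kb on either side of a gene and in 10 equal steps across its body (grey band), on the Ler genome (left) and the Col genome (right), for leaf-marked genes (purple) and the others (grey). Leaf-marked genes reach 1.46 on Ler and 1.99 on Col inside the body, and genes not marked in leaf dip to 0.770 on Ler and 0.728 on Col.

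Wider leaf domains had a higher median on the paternal genome, while the share with a Ler ratio of at least 2 did not climb with width. Of 5878 leaf domains, 4423 had at least 10 Ler H3 reads, and their median Ler log2 ratio was 0.44. By width it was 0.25 for domains under 1 kb, 0.30 for 1 to 2 kb, 0.41 for 2 to 4 kb, 0.53 for 4 to 8 kb and 0.60 for 8 kb and over. The share with a Ler ratio of at least 2 was 17.9%, 17.3%, 18.8%, 20.1% and 16.5% in the same order. Bare domains were 9.28% of the narrowest class and 0.418% of the widest, whose median depth was 17 and 144 Ler H3 reads, a difference that moves with width and whose part was not tested. The widest domain of all (chr4:10729051-10770750, TAIR10) held 943 Ler H3K27me3 reads and 690 Ler H3 reads and had a Ler ratio of 1.68 (1.52 to 1.85). The next widest domain (chr5:17029651-17064150), over MRN1 and CYP71A16, both of triterpene metabolism, held 1242 H3K27me3 and 766 H3 reads and had a Ler ratio of 1.99 (1.82 to 2.18).

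The 12 genes with the highest lower bound of the Ler ratio were led by AT1G06360, with 195 Ler H3K27me3 reads and 21 Ler H3 reads and a ratio of 11.4 (7.25 to 18.8). AT1G14580 followed with 141 and 16 reads and a ratio of 10.8 (6.44 to 19.4). Both genes lay in leaf domains and stayed above 10 with the H3 of both parents as the denominator (10.2 and 11.6). SWEET10, of the SWEET family of sugar transporters, had 69 H3K27me3 and 11 H3 reads and a ratio of 7.70 (4.05 to 16.1). GolS5, a galactinol synthase, had 92 and 17 reads and a ratio of 6.64 (3.93 to 11.9). Transcription factors on the list were WRKY56 (69 and 10 reads, ratio 8.47) and DEAR2, a DREB-type gene (56 and 10 reads, ratio 6.88). PAP8, a purple acid phosphatase, had 67 and 11 reads (ratio 7.48), and LCR7, which encodes a small cysteine-rich peptide, had 59 and 11 reads (ratio 6.59). The other members were AT2G21030, AT1G61840, AT5G50830 and AT4G18690, with ratios of 5.92 to 7.49.

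Of these 12 genes, 11 were leaf-marked, 9 lay in all 4 endosperm lists and 7 also had a Col ratio of at least 2. Of all 18666 tested genes, 3606 were leaf-marked, 2192 lay in all 4 lists and 1825 had such a Col ratio. All 12 widened intervals lay above 1. Their Ler ratios were computed on 10 to 22 Ler H3 reads. Only AT1G06360, AT1G14580 and AT5G50830 had a Ler share of H3 of 15% or more, where the median of all tested genes was 20.4%. AT1G61840 was the extreme case, with 12 Ler and 466 Col H3 reads, a Ler share of 2.51%. Its Ler ratio of 6.96 became 0.928 with the H3 of both parents. For the other 11 genes that denominator gave ratios of 2.00 (LCR7) to 11.6 (AT1G14580). Gene bodies widened by 500 bp on either side gave log2 ratios of 1.66 in WRKY56 and 1.87 in AT5G50830, both still marked. Without the 0.1% of bins with the highest Ler counts, AT1G06360, GolS5 and AT2G21030 fell under 10 Ler H3 reads. They could not be tested there, and the others stayed marked. A single bin held 44 of the 195 H3K27me3 reads of AT1G06360, 30 of 69 in SWEET10 and 30 of 92 in GolS5.

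The 12 genes with the lowest upper bound had no Ler H3K27me3 read over 26 to 35 Ler H3 reads. AT1G05240 had 0 H3K27me3 reads against 35 H3 reads, which puts it at least 9.50-fold lower than the scaled H3, taking 3 reads as the limit that a count of 0 allows. By the same bound BPM6, of a family of BTB and MATH domain proteins that act as ubiquitin ligase adaptors, was at least 8.69-fold lower (0 against 32 reads). ATL2, a RING finger gene, was at least 8.14-fold lower (0 against 30 reads), and SMO2-2, a sterol 4-alpha-methyl oxidase, at least 7.87-fold lower (0 against 29 reads). ZFN2 (0 against 27 reads), MRL7-L (0 against 28), JOSL (0 against 26), AT5G65100, AT1G13360, AT2G24240, AT1G62915 and AT1G71850 completed the group, down to at least 7.06-fold lower in JOSL. These fold bounds take the H3 reads as exact and leave out the extra spread within gene bodies. The exact interval of the ratio reached up to 0.136 in AT1G05240 and 0.187 in JOSL. Widened, it reached up to 0.484 and 0.693, and all 12 widened intervals lay below 1. None of the 12 lay in an endosperm list, and 1 was leaf-marked. Of all 18666 tested genes, 13543 lay in no endosperm list and 3606 were leaf-marked. With 500 bp added on either side, the log2 ratio, computed with 0.5 added to each count, was -0.33 in AT1G13360, which was then no longer bare, -1.19 in AT2G24240, -1.77 in ATL2, -2.11 in SMO2-2, -2.91 in JOSL and -2.93 in BPM6. The other 6 genes lay at -4.86 or lower there, and 11 of the 12 stayed bare.

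Developmental regulators, the classic targets of PRC2, were compared in 4 lists, whose counts stand beside 7.42% marked and 18.0% bare among all tested genes. The embryo and seed maturation list also holds storage protein and oleosin genes, which are not regulators. Floral and flowering-time regulators had a median Ler log2 ratio of 0.51 over 21 tested genes of 23, with 5 marked and none bare. Meristem and boundary regulators had 0.42 over 9 of 13, with 2 marked and none bare. Embryo and seed maturation genes had 0.41 over 12 of 18, with 1 marked and 1 bare, and root regulators 0.71 over 5 of 10, with 2 marked and none bare. All 4 medians lay above the -0.17 of all tested genes, and they remained positive with the H3 of both parents (0.46 to 0.75). On Col the medians were 0.91, 1.29, 0.93 and 1.63 in the same order, each higher than on Ler.

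Among floral regulators the paternal mark was highest at FUL, a MADS-box gene of fruit and meristem identity, with 46 Ler H3K27me3 reads and 19 Ler H3 reads and a ratio of 2.97 (1.71 to 5.37). SVP, a repressor of flowering, had 97 and 41 reads and a ratio of 2.90 (2.00 to 4.29). SEP4, of the SEPALLATA floral organ identity genes, had 76 and 40 reads and a ratio of 2.33 (1.57 to 3.51). These 3 calls held with the widened interval. LFY, the master regulator of floral fate (31 and 15 reads, ratio 2.54), and SEP2 (22 and 11 reads, ratio 2.46) passed on fewer reads and did not. With the H3 of both parents SEP2 was at 1.97, and the other 4 stayed marked. FLC, the repressor that vernalization silences, had 56 and 37 reads and a Ler ratio of 1.86 (1.21 to 2.90), where its Col ratio was 4.84. At the other end SEP1 had 22 and 52 reads and a Ler ratio of 0.519 (0.300 to 0.870). AP3, a petal and stamen identity gene, had 17 and 28 reads and a Ler ratio of 0.745 (0.383 to 1.41), with a Col ratio of 2.25.

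Meristem genes split in the same way. CUC2, a NAC gene that sets organ boundaries, had 143 Ler H3K27me3 and 55 Ler H3 reads and a ratio of 3.19 (2.32 to 4.44). CLV3, the peptide signal of stem cells, had 38 and 13 reads and a ratio of 3.59 (1.87 to 7.34), and both held with the widened interval. STM, the homeobox gene that maintains the shoot meristem, had 87 and 101 reads and a Ler ratio of 1.06 (0.785 to 1.42), and its Col ratio was 2.95. KNAT2 of the same homeobox family had 31 and 63 reads and a Ler ratio of 0.604 (0.380 to 0.943), with a Col ratio of 2.85. All 9 meristem genes were leaf-marked and 8 had a Col ratio of at least 2, and the gap between the genomes at STM and KNAT2 has no replicate check.

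The seed maturation list held the most deeply covered marked member of these lists. CRA1, a cruciferin storage protein gene, had 167 Ler H3K27me3 and 58 Ler H3 reads and a ratio of 3.54 (2.61 to 4.85). Its Col ratio, scaled to the Col totals, was 3.80. ABI3, a B3 transcription factor of maturation, had 47 and 30 reads and a Ler ratio of 1.92 (1.19 to 3.15). FUS3, a B3 factor of the same network, was bare on Ler with 15 and 49 reads and a ratio of 0.376 (0.196 to 0.681), while its Col ratio was 3.74. The bare call of FUS3 did not hold with the widened interval, nor with the H3 of both parents, which gave 0.680 at a Ler share of H3 of 34.0%. In the root list RSL2, a bHLH gene of root hair growth, had 98 and 28 reads and a ratio of 4.30 (2.80 to 6.80), and PLT1, an AP2-type gene of the root stem cell niche, had 63 and 28 reads and a ratio of 2.76 (1.74 to 4.48). Both held with the widened interval.

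**Figure D3:**
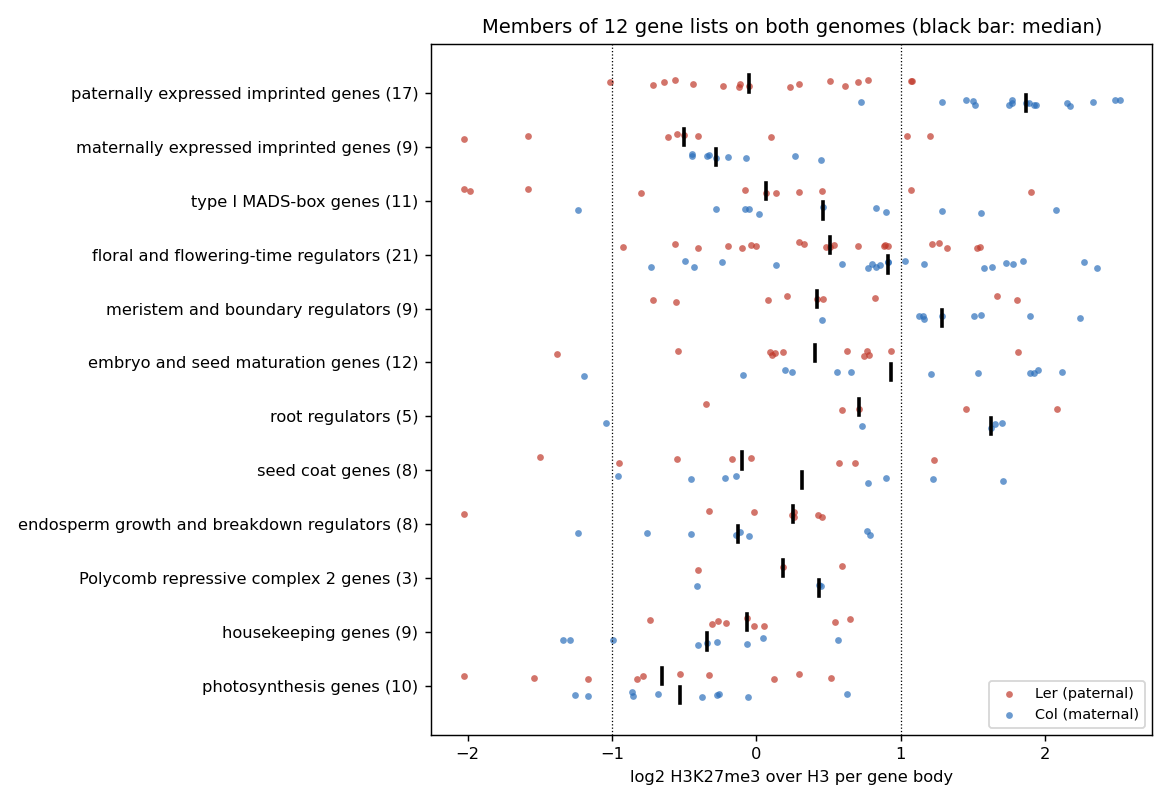
Log2 ratio of H3K27me3 over H3 per gene body (horizontal axis) for each tested member of 12 gene lists (rows, number tested in brackets) on the Ler genome (red, upper) and the Col genome (blue, lower), with black bars at the medians and dotted lines at ratios of 2 and 0.5. The widest gap between the 2 genomes is in the paternally expressed imprinted genes, with medians of -0.05 on Ler and 1.87 on Col.

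Paternally expressed imprinted genes, whose father's allele is the active one, were close to the general level on the paternal genome. Of 20 listed genes 17 were tested, with a median Ler log2 ratio of -0.05 (0.26 without the genes on chromosome 4), 2 marked and 1 bare. On Col the median was 1.87 and 16 of 17 had a ratio of at least 2. The Ler ratio lay below the Col ratio in 17 of 17 genes, against 49.1% of all tested genes, although genes high on Col lay below it on Ler in general. Summed over the 17 genes, the Ler ratio was 1.07 (0.958 to 1.19) and the Col ratio 3.46 (3.34 to 3.59). Among the 531 tested genes with a Col log2 ratio from 1.5 to 2, the median on Ler was 0.60 (quartiles 0.02 and 1.10).

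The paternal alleles of these imprinted genes covered a range. VIM5, of a family of methylated-DNA binding proteins, had 79 Ler H3K27me3 and 114 Ler H3 reads and a ratio of 0.851 (0.630 to 1.14). SUVH7, a SET-domain gene, had 59 and 79 reads and a ratio of 0.917 (0.643 to 1.30), and ADM, a gene that acts in the triploid seed barrier, had 25 and 32 reads and a ratio of 0.959 (0.545 to 1.67). Their Col ratios were 3.84, 3.42 and 4.52. The auxin biosynthesis gene YUC10 had 29 and 53 reads and a Ler ratio of 0.672 (0.412 to 1.08), and the other auxin gene, TAR1, had 14 and 12 reads and a Ler ratio of 1.43 (0.615 to 3.39). PKR2, a chromatin remodeller related to PICKLE, was the bare member with 9 and 23 reads and a ratio of 0.480. AGL92, a type I MADS-box gene, was marked with 67 and 39 reads and a ratio of 2.11 (1.40 to 3.22), and so was AT5G63740 with 21 and 12 reads and a ratio of 2.15 (1.01 to 4.79). None of the 3 calls held with the widened interval or with the H3 of both parents, which gave 0.691 for PKR2, 1.50 for AGL92 and 1.93 for AT5G63740.

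Maternally expressed imprinted genes, silent on the paternal allele, had a median Ler log2 ratio of -0.50 over 9 tested of 11, with 2 marked and 2 bare, and -0.02 with the H3 of both parents. FWA, a homeodomain gene whose silent allele is DNA-methylated, was bare with 7 Ler H3K27me3 and 37 Ler H3 reads and a ratio of 0.232 (0.0874 to 0.528), and its widened interval ended just below 1, at 0.995. AGL36, a type I MADS-box gene, was bare with 4 and 16 reads and a ratio of 0.307. FIS2, the PRC2 zinc finger subunit, had 49 and 80 reads and a ratio of 0.752 (0.516 to 1.09). In the homeodomain genes HDG8 and HDG9 the ratios were 1.07 (103 and 118 reads) and 2.33 (36 and 19 reads). MYB3R2, a MYB-type gene, had 49 and 29 reads and a ratio of 2.07. The marked calls of HDG9 and MYB3R2 came with Col ratios of 0.954 and 0.788 and Ler shares of H3 of 8.68% and 11.3%. With the H3 of both parents their ratios were 1.07 and 1.25.

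Type I MADS-box genes, many of which are active in early endosperm, had a median of 0.06 on Ler over 11 tested of 20, with 2 marked and 3 bare. AGL96 was marked with 59 Ler H3K27me3 and 19 Ler H3 reads and a ratio of 3.81 (2.24 to 6.77), a call that held with the widened interval. AGL62, which delays endosperm cellularization, had 38 and 34 reads and a ratio of 1.37 (0.841 to 2.25). AGL80, a central cell and endosperm regulator, was bare with 4 and 22 reads and a ratio of 0.223, and AGL34 was bare with 6 and 31 reads and a ratio of 0.238. AGL34 and AGL36 are close relatives between which reads may be split. Regulators of endosperm growth and breakdown, 8 tested of 9, had a median of 0.25 with none marked and 1 bare (AGL80). ZOU, the bHLH regulator of endosperm breakdown, had 28 and 29 reads and a ratio of 1.19, and IKU2, a receptor kinase of seed size control, had 37 and 38 reads and a ratio of 1.20. Only 3 of 8 PRC2 genes were tested, namely CLF, FIS2 and VRN2, with ratios of 1.14, 0.752 and 1.51.

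Photosynthesis, housekeeping and seed coat genes were near or below the general level on Ler. Photosynthesis genes had a median Ler log2 ratio of -0.65 over 10 tested of 14, with none marked and 3 bare, namely GAPA (5 and 27 reads, ratio 0.227), a Calvin cycle dehydrogenase gene, CAB1 (3 and 12 reads, ratio 0.307), a light-harvesting gene with near-identical copies between which reads may be split, and PSBO1 (12 and 34 reads, ratio 0.433), of the oxygen-evolving complex. None of these 3 held with the widened interval, and with the H3 of both parents CAB1 was at 0.979, PSBO1 at 0.753 and GAPA at 0.263, so that only GAPA stayed bare. CAB1 had a Ler share of H3 of 60%. At 40 or more Ler H3 reads PSAF alone of the tested members was left, at 0.30 on the log2 scale. Housekeeping genes had a median of -0.07 over 9 tested of 11, with none marked or bare, and ratios from 0.595 to 1.57. Seed coat genes, 8 tested of 12, had a median of -0.10 with 1 marked and 1 bare, and 0.41 with the H3 of both parents. BAN, the anthocyanidin reductase gene of the seed coat, was marked with 79 and 41 reads and a ratio of 2.37 (1.60 to 3.54), also with the widened interval, against a Col ratio of 0.907. With the H3 of both parents its ratio was 1.46, which ends the marked call, at a Ler share of H3 of 11.6%. TTG2, a WRKY gene of seed coat development, was bare with 8 and 29 reads and a ratio of 0.339, which was 0.586 with the H3 of both parents. Other seed coat genes had higher Col ratios, 3.28 for TT16 and 2.34 for TT1, against 1.61 and 0.887 on Ler, and the part of maternal nuclei in the Col values was not tested.

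Most marked genes stood alone among the tested genes on either side of them, which a marked share of 7.42% would give by itself. Whether runs were more frequent than that share gives was not tested. There were 1055 single marked genes, 129 pairs, 16 runs of 3 and 6 runs of 4, counted over tested neighbours. A run of 4 on chromosome 4 held PEN1, a triterpene synthase gene, with CYP705A1, CYP705A2 and CYP705A3, cytochrome P450 genes beside it. PEN1 had 202 Ler H3K27me3 and 118 Ler H3 reads and a ratio of 2.10, and the P450 genes had ratios of 2.82, 2.03 and 3.93. Another run held BHLH32, also known as TMO5 and active in vascular development (60 and 18 reads, ratio 4.09), AT3G25716, RTFL16, a DEVIL peptide gene (48 and 12 reads, ratio 4.91), and AT3G25720. The beta-glucosidase gene BGLU32, PP2-B12, AT5G24570 and AT5G24580 made another run, with ratios of 2.52 to 3.09, and the others were AT1G61740 to AT1G61770, AT2G18550 to AT2G18590 and AT4G22460 to AT4G22470. Bare genes, which were more numerous at 18.0% of tested genes, came in runs of up to 7. One of the 3 longest held RWA3, LHB1B1 and UREG with 4 unnamed genes, with 0 to 15 H3K27me3 reads against 12 to 53 H3 reads per gene.

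On the scale of chromosomes the paternal mark was lower around the centromeres than in the arms, and the arms themselves varied. A 100 kb window was called pericentromeric where protein-coding genes covered under 40% of the 1 Mb around it. These 256 windows had a summed Ler ratio of 0.862 (0.858 to 0.867), and the arms had 1.04 (1.03 to 1.04). The difference was -0.26 on the log2 scale, pericentromere minus arms, and it was negative on each of the 5 chromosomes. Pericentromeric Ler ratios were 0.922, 0.866, 0.888, 0.803 and 0.821 for chromosomes 1 to 5. On Col the contrast was larger, with 0.646 in the pericentromere and 1.10 in the arms. Protein-coding genes within the pericentromere differed little from those in the arms on Ler, with medians of -0.21 (n = 1354) and -0.17 (n = 17312).

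Among 1163 windows with at least 100 Ler H3 reads, the Ler ratio ran from 0.258 to 1.99 with quartiles of 0.858 and 1.12. The 927 of these windows on the arms ran from 0.558 to 1.99, with quartiles of 0.891 and 1.15. None reached 2 on Ler, whereas 33 did on Col. A ratio of at most 0.5 was found in 10 windows on Ler, all 10 of them pericentromeric, and in 99 on Col. The lowest Ler ratio was in chr3:14400001-14500000, with 30 Ler H3K27me3 and 143 Ler H3 reads and a ratio of 0.258 (0.168 to 0.384). The lowest upper bound was in chr5:11700001-11800000, with 109 and 444 reads and a ratio of 0.301 (0.242 to 0.372). Neither window held a tested gene.

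**Figure D4:**
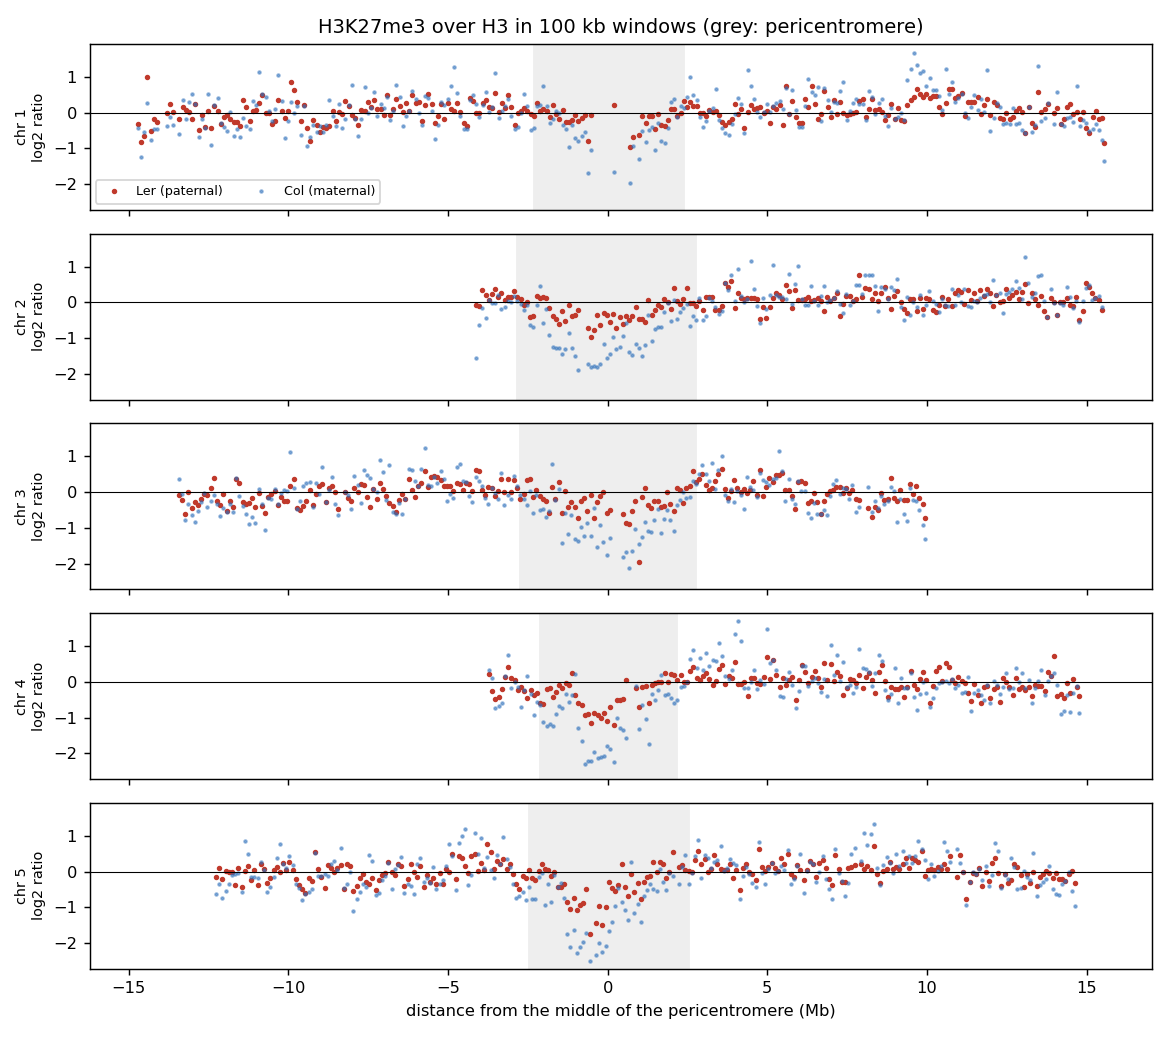
Log2 of H3K27me3 over H3 (vertical axis) in 100 kb windows with at least 100 Ler H3 reads, by distance from the middle of the pericentromere (horizontal axis, Mb; grey band, pericentromere), for chromosomes 1 to 5, on the Ler genome (red) and the Col genome (blue). Both genomes dip in the grey band, with summed pericentromeric ratios of 0.862 on Ler and 0.646 on Col.

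The 8 windows with the highest lower bound all lay on the arms and held 1 to 6 marked genes each. The window with the highest lower bound, chr1:400001-500000, had 342 Ler H3K27me3 and 211 Ler H3 reads and a ratio of 1.99 (1.67 to 2.37), with HFR1, a bHLH gene of light signalling, and GL22, a germin-like gene, as its 2 marked genes of 5 tested. In chr1:4900001-5000000 the counts were 1088 and 732 and the ratio 1.82 (1.66 to 2.01), and AT1G14580 was 1 of 2 marked genes. In chr5:8500001-8600000 they were 2116 and 1512 and the ratio 1.72 (1.61 to 1.84), with 5 marked genes of 16, VSP1 and VSP2 among them, which encode vegetative storage proteins. In chr5:20600001-20700000, the window of SWEET10 and SWEET13, 5 of 11 tested genes were marked and the ratio was 1.64 (1.51 to 1.78). In chr4:8700001-8800000, the window of PEN1 and the CYP705A genes, 6 of 17 were marked and the ratio was 1.61 (1.51 to 1.72), against 2.81 on Col.

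The paternal genome was also set against the maternal genome, with each ratio relative to its own totals. Parent and accession cannot be told apart in this comparison. The paternal genome was marked at some of the same genes and at many with a lower ratio. Of the 1825 genes with a Col ratio of at least 2, 482 were marked on Ler (26.4%, Wilson 95% interval 24.4 to 28.5), which is 34.8% of the marked genes on Ler, and 118 (6.47%) were bare. With at least 40 Ler H3 reads, 107 of 561 such genes were marked on Ler (19.1%), which is 52.7% of the 203 marked at that depth. The Ler median climbed with the Col ratio, at -0.66 for a Col log2 ratio under -1, -0.30 from -1 to 0, 0.13 from 0 to 1, 0.51 from 1 to 1.5, 0.60 from 1.5 to 2 and 0.59 from 2 upward. Above a Col log2 ratio of 1.5 the Ler median no longer climbed. Across the 18666 genes Pearson's r between the log2 ratios was 0.37, and 0.46 across the 7547 genes with at least 40 Ler H3 reads, as a description of genes that share libraries and local mapping.

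**Figure D5:**
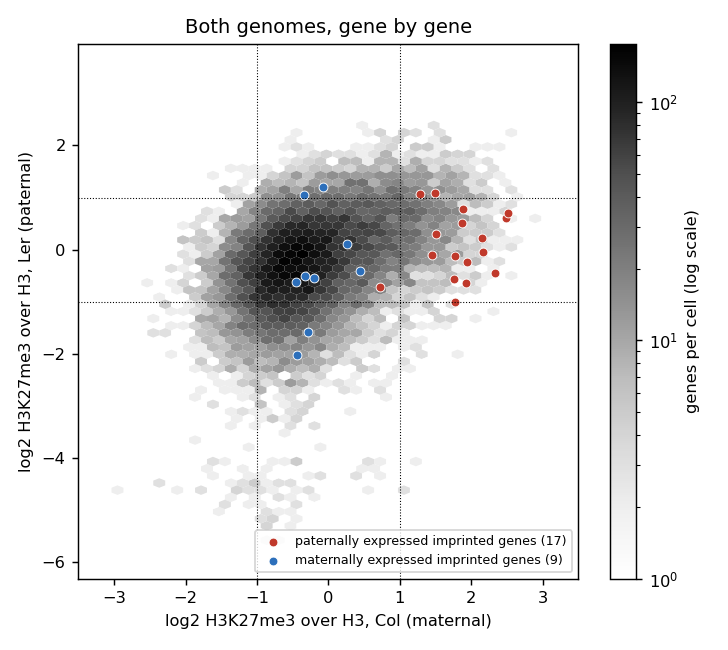
Log2 H3K27me3 over H3 on the Ler genome (vertical axis) against the Col genome (horizontal axis) for 18666 genes (grey, number of genes per cell on a log scale), with 17 paternally expressed (red) and 9 maternally expressed (blue) imprinted genes and dotted lines at ratios of 2 and 0.5. Of the paternally expressed genes 16 lie right of the line for 2 on Col, and 2 lie above that line on Ler.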

How the data were processed

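Per the submitters' processing notes, the tools were Trim Galore, Bowtie2, Picard, SICER and deepTools 2.0 and the build was TAIR10, with no step given for any of them. The authors deposited whole-number counts of reads per 150 bp bin in a Col and a Ler column for each antibody. Not given in the sources used here are the libraries that each column pools, the way a read was assigned to Col or Ler, and whether 1 read may add to several bins. Depth per library is therefore unknown. The authors also deposited a domain list for each of 4 endosperm libraries and 1 leaf library, with a p-value or q-value and a log2 enrichment per domain, of which only the positions were used here.

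From the counts, bins whose midpoint lay in a gene were summed over 27444 protein-coding genes of the TAIR10.1 annotation, treated as having the same nuclear coordinates as TAIR10. As a check, 47 of 54 developmental genes were leaf-marked in place, against 11 and 10 when moved by 50000 bp up or down. Ratios were scaled to nuclear totals, and log2 values used 0.5 added to each count. The widened interval is the exact interval on reads divided by the squared factor of spread between the 2 parts of a gene body. No model was fitted, because the columns carry no replicate. Text names the 12 genes at either end by interval bound, the 8 windows at either end, the longest runs and the members of 12 lists (160 distinct genes, 116 tested). The members, the lists and the families were chosen with earlier results of these data known. Some listed genes are printed by locus tag. Sequences were not used here. The ratio and interval steps were tested on simulated counts per gene that held counting error only, without the extra spread found within gene bodies. The summing over bins was not part of that test. Python 3.11.15, numpy 2.4.6, pandas 2.3.3, scipy 1.17.1 and matplotlib 3.10.9 were used.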

Additional observations from a re-analysis of the deposited data

How the results depend on the processing

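No paired analysis was possible because the parental columns are pooled and carry no replicate, and leaving out a replicate was not possible for the same reason. The count of marked genes (1385) was 688 at 20 and 203 at 40 Ler H3 reads, 3192 at a fold of 1.5 and 307 at a fold of 3. The count of bare genes (3351) was 1115 at 40 reads, 5879 at a fold of 1.5 and 1468 at a fold of 3. The leaf difference (0.70) was 0.65 at 40 reads. The share of Col-marked genes that are marked on Ler (26.4%) was 30.0%, 23.0% and 19.1% at 5, 20 and 40 reads, 43.0% and 10.3% at folds of 1.5 and 3, and 31.4% with the median gene set to 0. Pericentromere minus arms (-0.26) was -0.25 without the 0.1% of bins with most reads, -0.28, -0.28, -0.25 and -0.25 without chromosomes 1, 3, 4 and 5 in turn, and -0.33 at under 30% gene cover. The cause of these shifts was not tested. Further alternatives were chosen after seeing the data. The widened interval gave 593 marked and 674 bare genes and a Col-marked share of 15.3%. H3 of both parents gave a share of 34.2% and a pericentromere difference of -0.34, and it reversed AT1G61840, to -0.10 on the log2 scale. Genes with at least 15% of H3 reads on Ler gave 727 marked genes and a share of 21.9%. The other 57 values of these 5 results stayed within their limits of change, which for the counts were a factor of 1.5 either way. Those limits are wide, and 2067 marked genes at 5 reads and 2382 bare genes at 20 reads lay within them.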

Other observations

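Gene families matched by symbol differed in how often the paternal genome was marked, against 7.42% marked and 18.0% bare among all tested genes. Expansins, which loosen cell walls, had 7 of 23 marked (30.4%) and a median Ler log2 ratio of 0.30. MYB genes had 22 of 87 marked (25.3%), WRKY genes 13 of 53 (24.5%) and NAC genes 14 of 70 (20.0%), all of them plant transcription factor families, with medians of 0.30, 0.30 and 0.27. Small cysteine-rich peptide genes of the LCR and defensin-like kind had 12 of 55 marked (21.8%), at a median of 15 Ler H3 reads, below the 33 of all tested genes. Cytochrome P450 genes had 29 of 174 marked (16.7%). At the other end, light-harvesting and photosystem genes had none of 31 marked and 13 bare (41.9%), with a median of -0.77. Their median depth was 17 Ler H3 reads, and 21.7% of all tested genes with 10 to 17 such reads were bare. Heat shock genes had 1 of 44 marked and 11 bare (25.0%). Pentatricopeptide repeat genes, which act on organelle RNA, had 5 of 178 marked (2.81%), while their bare share of 18.5% (33 genes) was that of all tested genes.

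At 40 or more Ler H3 reads, 203 of 7547 genes were marked on Ler, 26 of them with a Col ratio of at most 1. The median Col log2 ratio was 1.02 in the 203 marked genes and -0.37 in all 7547, so a Col ratio under 1 was common at this depth. Genes named here were chosen after their values were seen. AT2G03370 had 111 Ler H3K27me3 and 41 Ler H3 reads and a Ler ratio of 3.32 (2.30 to 4.88), against a Col ratio of 0.798. SUS4, a sucrose synthase gene, had 89 and 43 reads and a Ler ratio of 2.54 (1.75 to 3.75), against 0.624 on Col. HIRA, the gene of a histone chaperone, had 78 and 42 reads and a Ler ratio of 2.28 (1.55 to 3.40), against 0.820 on Col. Their Ler shares of H3 were 10.8%, 9.95% and 15.8%. None of these named genes stayed marked with the H3 of both parents.

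In the opposite class AT5G46820 had 0 Ler H3K27me3 and 25 Ler H3 reads, against a Col ratio of 2.38. LUL3, a ubiquitin ligase gene, had 25 and 113 reads and a Ler ratio of 0.272 (0.169 to 0.422), against 2.32 on Col. PHT1;4, a phosphate transporter gene, had 28 and 88 reads and a Ler ratio of 0.391 (0.246 to 0.604), against 2.07 on Col. Their Ler shares of H3 were 19.8%, 23.3% and 28.6%. With the H3 of both parents PHT1;4 was no longer bare, while AT5G46820 and LUL3 stayed bare.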
